A study of Mus musculus with 4 samples.

Results

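A set of 42 imprinted mouse genes was followed on 4 arrays, chosen by name and found through the RefSeq accession that each probe carries. Of the 42, 40 had at least 1 matched probe (64 probes in all), out of 33378 genes or transcripts on the array; H19 and Magel2 had no matched probe. The samples were 2 induced pluripotent stem (iPS) lines, numbered 7 and 13, made from marrow cells of C57BL/6 mice that carry an Oct4-EGFP transgene, 1 array of E14 embryonic stem (ES) cells of strain 129, and 1 array of bone marrow mononuclear cells (BMMNCs) of C57BL/6 mice. Both pluripotent cell types were kept on irradiated mouse embryonic fibroblasts (feeders) with LIF, and feeders were reduced by preplating on gelatin before RNA was taken; E14 is a single line, and the labels give no transgene, age or pooling for the BMMNCs. Each sample was 1 array, so the lines 7 and 13 are the only replicates, and the labels do not say that their RNA came from separate experiments. The strain differs between iPS and ES cells together with the origin of the cells, and the 2 cannot be told apart.

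Imprinted genes are transcribed mainly or only from the copy inherited from 1 parent, a choice marked by DNA methylation laid down in the egg or the sperm and kept through cell division. Most lie in clusters under a shared control region, and many act on fetal and placental growth: paternally expressed genes such as Igf2 tend to promote it and maternally expressed genes such as Igf2r, Grb10 and Cdkn1c to restrain it. Pluripotent cells in culture can lose or gain imprints. The arrays measure total transcript and do not separate the parental copies, so no statement on imprinting itself follows from these levels. The parental class given below is the one known from mouse, where for several genes, such as Gatm, Osbpl5 and Ube3a, it holds only in certain tissues.

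A level is the log2 processed signal minus the 75th percentile of its array, and a gene was tested if it was well above background on at least 1 array. That left 36 members, 17 paternally and 19 maternally expressed; Rasgrf1, Zim1, Slc22a2 and Htr2a reached that mark on no array. Over all probes 54.6% to 59.0% were well above background on the 4 arrays. All 9 pluripotency markers were well above background on the iPS and ES arrays, and all 12 blood markers on the BMMNC array, where Pou5f1, Sox2, Zfp42, Esrrb, Tdgf1 and Fbxo15 were not. Fibroblast markers were read on the same scale: all 26 of the 27 listed that are on the array were well above background in both iPS lines and in ES cells, and 11 of 26 in BMMNCs. Their summed level, in multiples of the array's 75th percentile, was 807 in line 7, 732 in line 13, 652 in ES cells and 21.5 in BMMNCs. Embryonic fibroblasts are known to express several imprinted genes, among them Igf2, Mest and Peg3, and in bulk RNA fewer cells of a type and less RNA per cell cannot be told apart.

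**Figure D1:**
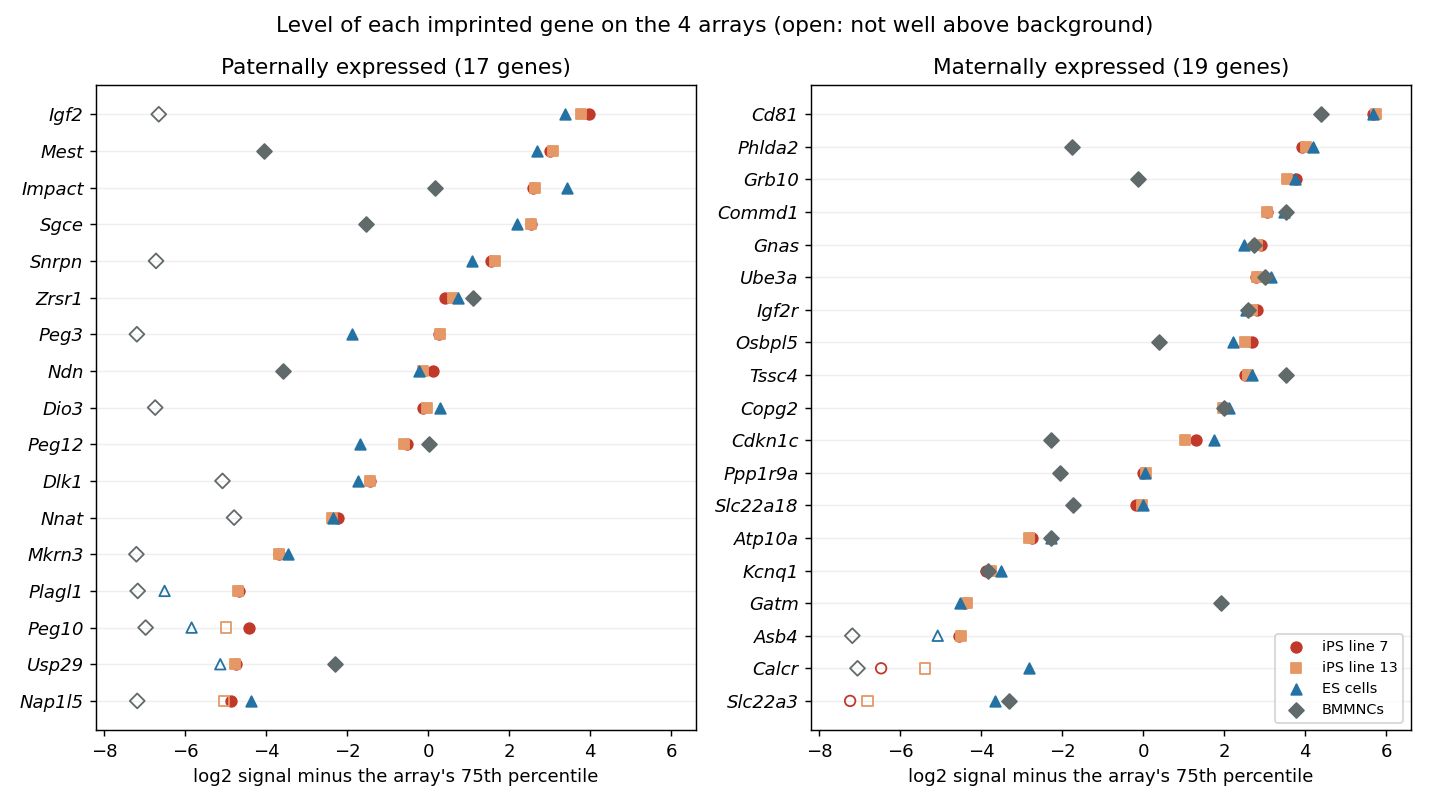
Level of each of the 36 tested members (log2 signal minus the array's 75th percentile) in iPS line 7, iPS line 13, ES cells and BMMNCs, paternally expressed genes on the left and maternally expressed genes on the right, ordered by the mean of the iPS lines; open symbols were not well above background. The 2 iPS lines nearly coincide for most genes, while 10 of the 17 paternally expressed genes have an open BMMNC symbol. Levels of different genes come from different probes and are not to be set against each other.

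The presence of signal itself differed between the samples. Members well above background numbered 34 in line 7, 32 in line 13, 32 in ES cells and 24 in BMMNCs, and 22 were so on all 4 arrays. A group of 7, all paternally expressed (Peg3, Igf2, Dlk1, Dio3, Snrpn, Mkrn3 and Nnat), was well above background in both iPS lines and in ES cells but not in BMMNCs. Plagl1 and Asb4 were so in the iPS lines alone, Calcr in ES cells alone, Slc22a3 in ES cells and BMMNCs, and Usp29 in the iPS lines and BMMNCs. Peg10 and Nap1l5 lay near the limit: Peg10 passed it in line 7 alone and Nap1l5 in line 7 and ES cells. The share of all genes with each of these patterns is not given here. The counts are therefore not read as a trait of imprinted or of paternally expressed genes.

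Imprinted genes differed widely between the iPS lines and BMMNCs, the kind of cell the lines were made from, and the paternally expressed ones were mostly higher. By limma, with Benjamini-Hochberg adjustment over all 21216 genes tested, 22 of the 36 members were higher in the iPS lines and 8 were lower, 30 in either direction. Over all genes tested, 38.0% were called higher, 37.8% lower and 75.8% in either direction, so the share of members called is near that of any genes, while more of them lay on the higher side. Of 17 paternally expressed members 14 were higher and 3 lower, with a median log2 difference of 3.52. Of 19 maternally expressed members 8 were higher and 5 lower, with a median of 0.17, against -0.01 over all genes tested. A difference is a bound for any gene below the background limit in 1 group; with those genes at their bound, the medians were 2.49 for the paternally expressed and 0.12 for the maternally expressed members. Median scaling turned the maternal median to -0.048, and the normexp correction lowered the paternal one to 1.65. The fit rests on 1 residual degree of freedom, from the 2 lines, and takes the single ES and BMMNC arrays to vary like them.

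Among ligands and other growth regulators, Igf2, the fetal growth factor, had levels of 3.98 in line 7 and 3.77 in line 13, against -6.66 in BMMNCs, where it was not well above background. By the probe used and the main scaling, the difference was at least 448-fold, with an adjusted p of 0.000713 by limma. In other settings the log2 difference ran from 7.15 to 10.72. A second Igf2 probe, also not well above background in BMMNCs, differed by 7.87. The Igf2 probe used is printed in 10 spots per array. Their SD on the log2 scale was 0.061 in line 7, 0.073 in line 13 and 0.69 in BMMNCs. Dlk1, a membrane protein of the Notch ligand type, read -1.44 and -1.43 in lines 7 and 13 against -5.08 in BMMNCs and was at least 11.3-fold higher (limma adjusted p = 0.000819). Its neighbour in the cluster, Dio3, which inactivates thyroid hormone, read -0.12 in line 7 and -0.03 in line 13 against -6.75 in BMMNCs and was at least 29.0-fold higher. The receptor Igf2r, which carries Igf2 to the lysosome, did not pass: it read 2.81 and 2.68 in lines 7 and 13 and 2.58 in BMMNCs, a difference of 0.17 (SE 0.11).

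The maternally expressed Phlda2, Grb10 and Cdkn1c, which restrain growth, were higher too. Phlda2, which limits placental growth, read 3.92 in line 7 and 4.01 in line 13 against -1.76 in BMMNCs, 53.0-fold higher. Grb10, an adaptor that dampens insulin and IGF receptor signalling, read 3.77 in line 7 and 3.56 in line 13 against -0.14 in BMMNCs, a log2 difference of 3.80 (SE 0.14). Cdkn1c, the cyclin-dependent kinase inhibitor p57, was 10.9-fold higher. For these 3 genes the lines lay far from the BMMNC array and close to each other, and the limma adjusted p was at most 0.00156.

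Of the nuclear and RNA-binding proteins, Snrpn, a core splicing protein, read 1.55 in line 7 and 1.65 in line 13 against -6.73 in BMMNCs, at least 92.9-fold higher. Peg3, a zinc finger protein, read 0.27 in line 7 and 0.30 in line 13 against -7.20 in BMMNCs, at least 37.1-fold higher, and its other probe was higher too. Both had a limma adjusted p of 0.000713. Ndn, a MAGE family protein of the Snrpn cluster, was 11.9-fold higher, and Mkrn3, a RING finger protein of the same cluster, at least 2.37-fold higher. Nnat, a small membrane proteolipid, was at least 5.62-fold higher, and Impact, an inhibitor of Gcn2 activation, was 5.42-fold higher. Of the remaining large differences, Mest, a hydrolase-like protein, read 3.01 in line 7 and 3.07 in line 13 against -4.05 in BMMNCs, a log2 difference of 7.09 (SE 0.097). Sgce, the epsilon-sarcoglycan, read 2.55 in line 7 and 2.54 in line 13 against -1.54 in BMMNCs, 16.9-fold higher. Plagl1, Peg10 and Asb4 also passed, but since BMMNCs were not well above background their bounds were low, at least 1.18-fold, 1.17-fold and 1.33-fold. Each was well above background on iPS arrays alone, Peg10 in line 7 only, so it entered the test only through the higher group. Nap1l5 passed with a bound under 1 and is given no fold. Osbpl5, Ppp1r9a, Slc22a18 and Cd81, the other 4 members called higher, were 2.52-fold to 4.60-fold higher. For Slc22a18 the log2 difference was 1.64, but a dimmer second probe, well above background on all 4 arrays, differed by only 0.25. Fibroblast markers moved in the same direction: all 26 were called higher in the iPS lines than in BMMNCs, with a median log2 difference of 6.99, and their part in these differences was not tested.

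The 8 members that fell were of both classes. Gatm, the first enzyme of creatine synthesis, read -4.41 in line 7 and -4.35 in line 13 against 1.93 in BMMNCs, 79.5-fold lower (limma adjusted p = 0.000713). Slc22a3, an organic cation transporter, read -7.24 in line 7 and -6.82 in line 13, not well above background, against -3.32 in BMMNCs, and was at least 3.76-fold lower (adjusted p = 0.00263 by limma). Usp29, of the deubiquitinase family, read -4.75 in line 7 and -4.78 in line 13 against -2.30 in BMMNCs, 5.52-fold lower. By measured signal these 3 alone among the members were past 4-fold lower in both lines, as were 15.0% of all genes tested, and the bound for Slc22a3 is under 4-fold. The second Usp29 probe stayed below the background limit on all 4 arrays and read higher in the iPS lines, by 1.53. The other 5 changed by less. Tssc4, a splicing factor assembly protein, read 2.51 in line 7 and 2.58 in line 13 against 3.51 in BMMNCs. Peg12, of the Frat family that binds Gsk3, read -0.54 in line 7 and -0.59 in line 13 against 0.02 in BMMNCs. Zrsr1, a splicing protein related to U2af1, read 0.42 in line 7 and 0.61 in line 13 against 1.10 in BMMNCs. Both lines lay below the BMMNC array for each of them. Commd1, a regulator of copper handling in whose gene Zrsr1 lies, read 3.05 in line 7 and 3.06 in line 13 against 3.53 in BMMNCs, while its other 2 probes read slightly higher in the iPS lines, by 0.030 and 0.043. Atp10a, a phospholipid flippase, read -2.76 in line 7 and -2.83 in line 13 against -2.29 in BMMNCs. These 5 differences ran from -0.97 to -0.47 on the log2 scale, with limma adjusted p between 0.00618 and 0.0343. Under the other settings tested, 8 of the 30 members called against BMMNCs lost the call in 1 to 3 settings: Plagl1, Peg10, Nap1l5, Peg12, Zrsr1, Atp10a, Commd1 and Slc22a3. By measured signal, 18 members were past a 4-fold excess over BMMNCs in both lines, as were 15.2% of all genes tested. For Plagl1, Asb4 and Mkrn3 among them the bound was under 4-fold, which leaves 15.

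**Figure D2:**
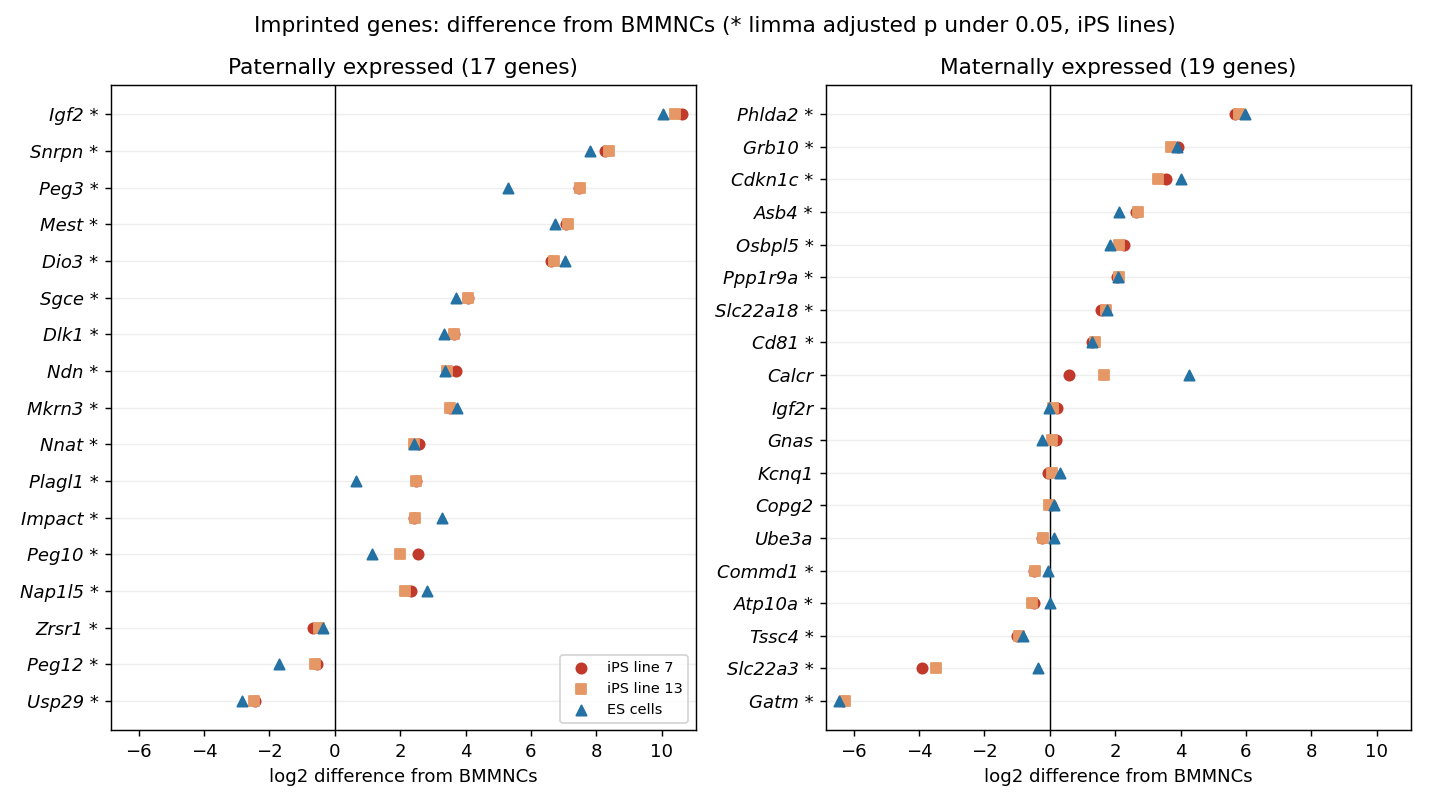
Log2 difference from BMMNCs of iPS line 7, iPS line 13 and ES cells for the 36 tested members, ordered by the mean of the iPS lines within each class; an asterisk marks a limma adjusted p under 0.05 for the iPS lines. Points of the 10 paternally expressed genes with BMMNCs not well above background, Igf2 among them, show measured signal and not a known size; among the other 7 the highest is Mest at 7.09, and 3 of the 17 lie below 0, while the maternally expressed genes run from 5.73 for Phlda2 to -6.31 for Gatm. The 3 series share the BMMNC array.

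The 6 members that did not pass against BMMNCs were all of the maternally expressed class. Calcr, the calcitonin receptor, was not well above background in either line or in BMMNCs. The other 5 were well above background on all 4 arrays: Kcnq1, a potassium channel, Gnas, the stimulatory G protein subunit, Igf2r, Ube3a, a ubiquitin ligase, and Copg2, a coatomer subunit. Their log2 differences ran from -0.21 for Ube3a to 0.17 for Igf2r. For Gnas and Ube3a the probes differed in sign.

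Set against BMMNCs by size alone, since both sides are single arrays, ES cells had 17 members past a 4-fold excess by measured signal, as were 17.2% of all genes tested. For Mkrn3 and Nap1l5 the bound was under 4-fold, at 2.75-fold and 1.47-fold, which leaves 15. Of the 17, 12 were paternally and 5 maternally expressed. Igf2 read 3.38 in ES cells against -6.66 in BMMNCs, at least 317-fold higher, and Snrpn at least 65.1-fold higher. Calcr was among the 17, with a level of -2.81 in ES cells and a bound of at least 4.35-fold. It passed the background filter through ES cells alone. Gatm and Usp29 were at least 4-fold lower in ES cells, where 15.8% of all genes tested were. Gatm read -4.52 in ES cells against 1.93 in BMMNCs, and Usp29 read -5.14, not well above background, against -2.30 in BMMNCs. No test was run on these single arrays, and this comparison shares its BMMNC array with the one above.

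Between the iPS lines and ES cells 24 of 36 members differed by at most 0.5 on the log2 scale and 6 by more than 1. The quartiles of the difference were -0.32 and 0.37 over the members, against -0.28 and 0.22 over all genes tested. The members thus lay no closer together than genes at large. The 3 paternally expressed genes Peg3, Plagl1 and Peg12 were higher in the iPS lines, and 1 maternally expressed gene, Slc22a3, was lower. By limma 1.95% of all genes tested were called higher and 2.83% lower, 4.77% in either direction, so 4 of 36 members in all were called against this background. Plagl1, 1 of these 4, was well above background in the iPS lines alone and entered the test only through them. That call is therefore not independent of the filter, which was the same for all genes tested. As CpG is the site of the DNA methylation that carries imprints, the promoters of the 4 members that limma called are printed here. Each runs 250 bases before to 50 after the RefSeq gene start of build GRCm38.p6, on the gene's own strand, with every CpG in capitals. The Peg3 window is chr7:6730370-6730669 on the minus strand, Plagl1 chr10:13090582-13090881 on the plus strand, Peg12 chr7:62464461-62464760 on the minus strand and Slc22a3 chr17:12507655-12507954 on the minus strand.
Peg3: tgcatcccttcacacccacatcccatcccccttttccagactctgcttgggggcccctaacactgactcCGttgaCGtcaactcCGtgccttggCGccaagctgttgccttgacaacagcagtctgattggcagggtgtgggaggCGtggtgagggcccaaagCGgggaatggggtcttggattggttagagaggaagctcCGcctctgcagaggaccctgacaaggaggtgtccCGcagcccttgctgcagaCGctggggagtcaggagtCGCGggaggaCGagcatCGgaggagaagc
Plagl1: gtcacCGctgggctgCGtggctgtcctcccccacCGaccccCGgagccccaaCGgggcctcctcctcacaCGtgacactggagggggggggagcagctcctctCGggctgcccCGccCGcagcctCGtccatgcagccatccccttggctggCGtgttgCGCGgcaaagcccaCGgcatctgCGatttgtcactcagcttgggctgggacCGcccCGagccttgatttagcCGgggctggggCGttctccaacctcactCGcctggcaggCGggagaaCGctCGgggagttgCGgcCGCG
Peg12: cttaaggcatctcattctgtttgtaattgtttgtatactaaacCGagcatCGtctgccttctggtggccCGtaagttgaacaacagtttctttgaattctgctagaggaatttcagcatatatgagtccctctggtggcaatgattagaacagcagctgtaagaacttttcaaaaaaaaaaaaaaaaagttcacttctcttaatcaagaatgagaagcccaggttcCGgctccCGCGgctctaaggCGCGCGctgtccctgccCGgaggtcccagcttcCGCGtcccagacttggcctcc
Slc22a3: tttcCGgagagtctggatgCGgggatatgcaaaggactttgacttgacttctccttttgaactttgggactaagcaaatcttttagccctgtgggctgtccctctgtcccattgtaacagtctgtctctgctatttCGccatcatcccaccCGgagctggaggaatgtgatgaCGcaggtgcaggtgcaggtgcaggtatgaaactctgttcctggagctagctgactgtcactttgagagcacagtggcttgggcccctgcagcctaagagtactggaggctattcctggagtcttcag

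Plagl1 held 26 CpG in its 300 bases, Peg3 13, Peg12 12 and Slc22a3 5. The median was 7 over 32851 promoters of that length and 16.5 over the 54 promoters of the 36 members with a promoter sequence. These 36 are not the 36 tested. They include Magel2, Rasgrf1, Zim1, Slc22a2 and Htr2a, while H19, Cdkn1c, Kcnq1, Impact, Sgce and Peg10 had no promoter sequence. The methylated hexamer that the zinc finger protein Zfp57 binds, TGCCGC, was searched on both strands. It was present in 11.6% of all promoters and in 14 of the 54, which belong to 13 members. Plagl1 had 1 match and Peg3, Peg12 and Slc22a3 had none in these windows. A match is a description of the letters alone, and methylation was not measured on these arrays. The Peg3 window and that of Usp29, which is transcribed the other way, overlap by 263 bases.

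Peg3 read 0.27 in line 7 and 0.30 in line 13, against -1.90 in ES cells, a log2 difference of 2.18 (SE 0.093) or 4.53-fold (limma adjusted p = 0.0425). Its second probe was higher by 2.38. Usp29, which shares the Peg3 promoter region, was not well above background in ES cells and did not pass (0.37, SE 0.093, limma adjusted p = 0.13).

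Plagl1, a zinc finger transcription factor also called Zac1, read -4.68 in line 7 and -4.70 in line 13 and -6.51 in ES cells, where it was not well above background. In the iPS lines it was higher by at least 1.36-fold, with a measured difference of 1.82 (adjusted p = 0.0425 by limma). Both lines were themselves dim. Peg12 read -0.54 in line 7 and -0.59 in line 13 against -1.70 in ES cells, 2.19-fold higher (log2 difference 1.13, SE 0.096, limma adjusted p = 0.0464). All 4 arrays were well above background for Peg12, and the iPS lines lay below BMMNCs and above ES cells.

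Slc22a3 read -7.24 in line 7 and -6.82 in line 13, neither well above background, against -3.67 in ES cells. It was at least 2.96-fold lower in the iPS lines (limma adjusted p = 0.0448). Its neighbour Igf2r differed by 0.20 (SE 0.11, limma adjusted p = 0.334) and did not pass. Calcr read -6.48 in line 7 and -5.40 in line 13, not well above background, against -2.81 in ES cells, at least 5.35-fold lower. It was more than 2-fold lower in both lines but missed the threshold (log2 difference -3.12, SE 0.57, limma adjusted p = 0.0917), and its second probe stayed below the background limit throughout. Calcr entered the test only through ES cells, the group where it was higher. By measured signal, 3 members were more than 2-fold higher in both lines and 2 more than 2-fold lower, as were 2.34% and 4.19% of all genes tested. Plagl1, with its bound of 1.36-fold, is 1 of the 3, and Peg3 and Peg12 are the other 2.

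The 4 calls sit close to the threshold of 0.05 and depend on the setting: each was kept in 5 of the 7 or 8 other settings in which it was tested, with adjusted p of up to 0.184 in limma. The normexp correction gave Plagl1 a difference of 0.46 and Slc22a3 one of -0.43, against 1.82 and -3.36. Across settings the difference was 1.97 to 2.28 for Peg3 and 1.02 to 1.23 for Peg12.

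Of the 31 other members, none passed. Among the 27 well above background in both lines and in ES cells, differences ran from -0.83 for Impact to 0.51 for Snrpn, and Peg10, dim in line 13 and ES cells, had a bound of at least 1.35-fold higher. Impact had the lowest adjusted p of the 31, 0.0595 by limma. Calcr included, 15 of the 32 members not called had an unadjusted p under 0.05 by limma. The share of all genes at that mark is not given here. This count and the like counts below are therefore not read as a result about the members. The paternally expressed members had a median difference of 0.35 and 12 of 17 were positive; the maternally expressed had a median of -0.13 and 6 of 19 were positive, against -0.06 and 43.6% over all genes tested. Among the growth regulators, Igf2 read 3.98 in line 7 and 3.77 in line 13 against 3.38 in ES cells, a difference of 0.50 (SE 0.14, limma adjusted p = 0.154). Cdkn1c differed by -0.58 (SE 0.16, limma adjusted p = 0.142), and Phlda2 by -0.23 (SE 0.10). In the same comparison the fibroblast markers had a median difference of 0.26 and were positive in 25 of 26, and limma called 0 of 26, with 1 at an unadjusted p under 0.05. Of the 9 pluripotency markers 7 were lower in the iPS lines than in ES cells, with a median of -0.34, and limma called 1, Zfp42, which was 13.0-fold lower (adjusted p = 0.0425). The part of either list in the differences of the imprinted genes was not tested.

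**Figure D3:**
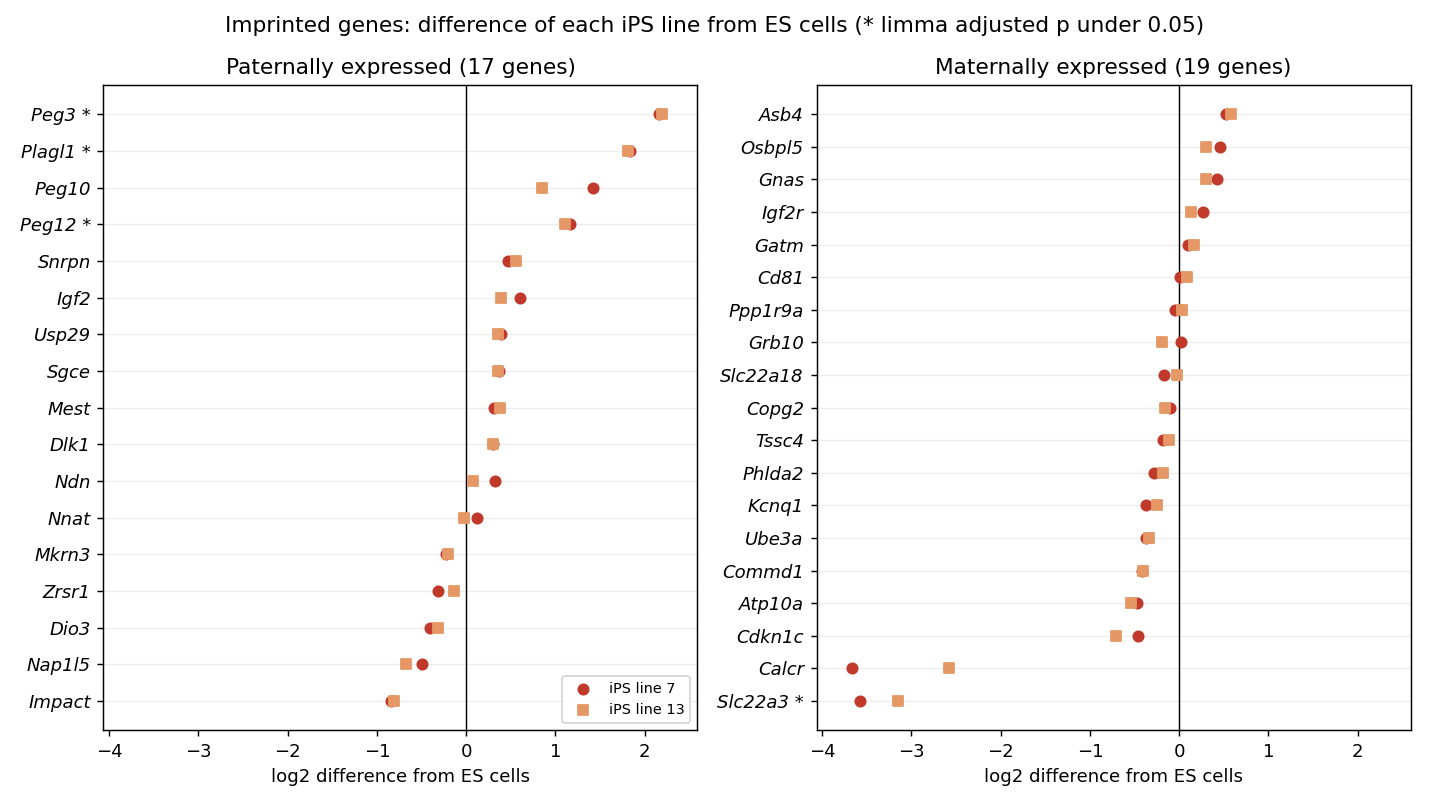
Log2 difference from ES cells of iPS line 7 and iPS line 13 for the 36 tested members, ordered by the mean of the lines within each class; an asterisk marks a limma adjusted p under 0.05. Peg3, Plagl1 and Peg12 stand at the right of the paternally expressed genes together with Peg10, where the lines lie apart, and Slc22a3 and Calcr at the left of the maternally expressed genes.

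Neighbours in a cluster did not all differ alike from ES cells. In the Snrpn to Ube3a cluster Peg12 was called higher, while Snrpn differed by 0.51 (SE 0.10, limma adjusted p = 0.104) and Ndn by 0.20 (SE 0.16). Mkrn3 differed by -0.22, and the maternally expressed Ube3a and Atp10a by -0.35 and -0.50, none of them past the threshold. In the Peg10 cluster Sgce differed by 0.36 and Ppp1r9a by -0.01, while Calcr, Asb4 and Peg10 have only bounds; limma called 0 of 5, with 4 at an unadjusted p under 0.05. A dimmer second probe of Ppp1r9a differed by 1.26. In the Kcnq1 cluster all 7 members, Cdkn1c among them, lay between -0.58 and 0.38; limma called 0 of 7, with 1 at an unadjusted p under 0.05. Several of these clusters lie on chromosome 7, which holds 16 of the tested members.

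The 2 iPS lines were nearly alike in these genes, as they were in genes at large. No member was at least 2-fold apart with the brighter side well above background, where 1.32% of all genes tested were so much higher in line 7 and 1.11% so much lower. The median absolute difference between the lines was 0.084 over the members and 0.11 over all genes tested. Among the 32 members well above background in both lines the largest difference was 0.25, for Cdkn1c, which read 1.29 in line 7 and 1.04 in line 13. Calcr differed by -1.08, but neither line was well above background, and Peg10 by 0.57. Fibroblast markers were higher in line 7 than in line 13 by a median of 0.16.

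A further list of imprinted genes and one of factors that maintain imprints were read in the same fit. Not every listed gene could be read. Of the imprinted genes, Meg3, Rian and Airn were among those without a matched probe, and Th and Dlx5 stayed below the background limit. Of the maintenance factors, Zfp57, Ctcf, Ctcfl and Arid4a had no matched probe. Of 19 other imprinted genes tested, 8 were called higher and 8 lower against BMMNCs, near the 38.0% and 37.8% of all genes tested. Against ES cells 1 was higher and 2 were lower, where 1.95% and 2.83% of all genes tested were. Mcts2, a retrogene, read -0.70 in line 7 and -0.69 in line 13 against 1.99 in ES cells, 6.41-fold lower (limma adjusted p = 0.0425). Xlr4b, an X-linked gene, read -1.83 in line 7 and -1.75 in line 13 against 0.46 in ES cells, 4.75-fold lower. Tspan32, a tetraspanin, read -2.91 in line 7 and -2.96 in line 13 against -4.37 in ES cells, 2.70-fold higher. Of 11 maintenance factors tested, 6 were higher and 4 lower against BMMNCs, where 75.8% of all genes tested were called in either direction. Against ES cells 3 were higher, where 1.95% of all genes tested were. Dppa3, which protects imprints from demethylation after fertilisation, read 3.05 and 3.01 in lines 7 and 13 against 1.60 in ES cells, 2.70-fold higher. The de novo methylation genes Dnmt3b and Dnmt3l were 2.96-fold and 2.10-fold higher. By limma 0 of 11 maintenance factors were called lower than in ES cells, with 2 lower at an unadjusted p under 0.05. Each of these 6 calls was kept in 5 or 6 of 7 or 8 other settings.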

How the data were processed

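Cy3-labelled RNA of 2 iPS lines, ES cells and BMMNCs was put on Agilent arrays read in 1 colour, per the labels' protocols. Images were read with Agilent Feature Extraction 9.5, per the submitters' processing notes (9.5.1.1 per the file headers). The deposited values are intensities, background-subtracted and detrended within each array, per the file headers; all 4 arrays share 1 slide and 1 scan. The authors' deposited value table holds the same intensity times 1 factor per array, linear and not centred by gene; its column medians are 135.9 in line 7, 133.6 in line 13, 139.9 in ES cells and 106.2 in BMMNCs, and how the factors were set is not given in the sources used here. No spot was saturated. The number of arrays limits the precision.

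Control spots were left out, and 14 probes whose spots were all flagged on an array. Signals were put on the log2 scale minus each array's 75th percentile, spots of a probe were averaged, and a gene took its brightest probe. A probe was well above background where a share of at least 0.5 of its spots was. Unversioned accessions were matched to the RefSeq table of GRCm38.p6, which named 22948 of 41160 probes; promoter sequences are RefSeq's. The array was designed on an older build, so no probe coordinates are given.

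limma 3.58.1 in R 4.3.3 fitted group means over all 4 arrays for 21216 genes, with 1 residual degree of freedom, a prior of 1.80 degrees of freedom and a prior SD of 0.093, and Benjamini-Hochberg adjustment at 0.05. The script was tested on simulated data. Size rules without a test, on measured signal, were at least 4-fold against BMMNCs and 2-fold otherwise, with the brighter side well above background. A bound ("at least N-fold") sets the mean of the bright group against the dim group, where each dim array enters with its measured value or, if higher, with the dimmest value still well above background on that array. A bound holds for the probe used under the main scaling. Against BMMNCs, other settings gave log2 differences down to 1.65 for Dlk1, 3.28 for Dio3 and 0.99 for Nnat. They went down to 7.15 for Igf2, 4.71 for Snrpn, 3.99 for Peg3, 0.46 for Mkrn3, 0.29 for Asb4 and 0.078 for Plagl1. The Slc22a3 difference shrank to -1.66. Against ES cells the differences shrank to -1.40 for Calcr, -0.43 for Slc22a3 and 0.34 for Peg10. In size all of these lie under the bound given for the gene in that comparison. Members, lists and tests were chosen with earlier results of these data known. Members given with each array's level are those past the threshold or 2-fold apart in both lines against ES cells, 2-fold apart between lines, or among the 10 largest differences or the fallers against BMMNCs; the rest are given by ranges and counts. Alternatives covered normalization, background, filter, probe choice, moderation, grouping, the authors' table and leaving out each line. A normexp correction on mean signals was planned; the files used here hold spot medians, so those were used with an offset of 50, chosen after seeing the data.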

Additional observations from a re-analysis of the deposited data

Results flagged for a closer look

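No group held enough arrays for a test of outlying samples. In 5 cases the 2 iPS lines lay on opposite sides of the same array, and these differences between the lines were not tested. Against ES cells, Grb10 differed by 0.026 in line 7 and -0.19 in line 13, Nnat by 0.13 in line 7 and -0.020 in line 13, and Ppp1r9a by -0.041 in line 7 and 0.029 in line 13, on the log2 scale. Against BMMNCs, Copg2 differed by 0.026 in line 7 and -0.026 in line 13, and Kcnq1 by -0.048 in line 7 and 0.069 in line 13. None of these genes passed the limma threshold in the comparison concerned, and each line differed from the other by at most 0.22.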

How the results depend on the processing

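Calls against ES cells depended most on the setting. The main fit called 3 members higher and 1 lower in the iPS lines. The normexp correction called 9 higher and 8 lower, an intensity trend in limma 9 and 9, and a filter for genes above background on all arrays 5 and 6. The authors' table and the fit with no filter called 0 in each direction by limma. At an unadjusted p under 0.05 by limma, 10 members were higher and 9 lower in that table, and 6 and 3 with no filter. The main fit also had 10 higher and 9 lower members at that mark. That table holds the main intensities times 1 factor per array. It thus differed from the main fit in which members passed the adjusted threshold, while the unadjusted counts were equal. Against BMMNCs, 22 members were higher and 8 lower; genes above background on all arrays left 11 higher, no filter left 4 lower, and taking ES and iPS arrays as 1 group left 3 lower. In ES cells against BMMNCs, 17 higher and 2 lower by size became 11 with normexp and 8 with genes above background on all arrays, and 1 lower in these settings and with the mean of probes. The share of all genes called, or past the size rule, in each other setting is not given here. These counts are therefore not read as a result about imprinted genes. The cause was not tested, other than that a stricter filter tests fewer genes.

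The paternal median against BMMNCs, 3.52, was 3.30 with median scaling, 3.42 with quantile normalization, 1.65 with normexp, 3.01 with no filter and 3.01 above background on all arrays, and 3.45 to 3.51 with a line left out. Against ES cells, 0.35, it was 0.44 with median scaling, 0.38 with quantile normalization, 0.25 with normexp, 0.27 above background on all arrays and 0.30 with the mean of probes. The maternal median against BMMNCs, 0.17, turned to -0.048 with median scaling. Against ES cells, -0.13, it was -0.038 with median scaling, -0.094 with quantile normalization, -0.11 with normexp, no filter and above background on all arrays, -0.074 with the mean of probes, and -0.17 to -0.16 with a line left out.

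Signs turned only for members not called in the main fit. Against BMMNCs these were Kcnq1 (-0.20 median scaling, -0.19 quantile normalization, -0.40 normexp, -0.048 to 0.069 with a line left out), Gnas (-0.095 median scaling, -0.29 mean of probes, -0.0014 with ES and iPS as 1 group), Igf2r (-0.048 median scaling), Ube3a (0.056 mean of probes), Calcr (-0.21 normexp) and Copg2 (-0.21 median scaling, -0.00025 authors' table, -0.026 to 0.026 with a line left out). Against ES cells they were Nnat (-0.020 to 0.13 with a line left out), Grb10 (0.010 median scaling, -0.19 to 0.026 with a line left out) and Ppp1r9a (0.086 median scaling, 0.033 normexp, 0.25 mean of probes, -0.041 to 0.029 with a line left out). The count of members 2-fold apart between lines cannot be had with a line left out, and the ES comparison with BMMNCs uses neither line. No paired analysis was possible because the only numbered replicates are the 2 iPS lines. Signals near background limit Plagl1, Slc22a3, Calcr and Peg10 to bounds.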
